A study of Mus musculus with 4 samples.

Results

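The machinery that carries a cell from G1 into S phase was examined through 10 genes, namely the D cyclins Ccnd1, Ccnd2 and Ccnd3, their kinases Cdk4 and Cdk6, the E cyclins Ccne1 and Ccne2, and the RB family Rb1, Rbl1 and Rbl2. These genes were chosen by name, with earlier results of these data known. Every probe set annotated to a single one of those symbols was taken, which gave 30 of 45101 probe sets and 10 of 18194 genes. Necdin null LSK cells (Lin-Sca-1+c-Kit+, the part of the bone marrow that holds blood stem cells and early progenitors) were measured on 2 Affymetrix arrays and wild type LSK cells on 2. All 4 samples came from C57BL/6 mice whose marrow had been rebuilt from fetal liver cells of the stated genotype and which then received 6.5 Gy, so no array shows unirradiated cells. The age of the mice, the time between irradiation and collection, any pooling of animals and any separation of donor from remaining host cells are not given in the sources used here. Whether replicates are separate animals is not stated either, so p-values cover the spread between these 4 arrays only, part of which may be technical, and the number of arrays limits the precision.

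D cyclins are made in response to growth factors and activate Cdk4 and Cdk6, which begin the phosphorylation of the RB proteins. Phosphorylated RB proteins release E2F factors, which turn on Ccne1, Ccne2 and the genes of DNA replication, and cyclin E with Cdk2 completes the step. In blood stem cells this switch is known for separating quiescence from division, and necdin, the product of the imprinted gene Ndn, is known as a growth suppressor that binds E2F1 and p53.

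The array values were MAS5 signals, each array scaled to 1 common mean, and the probe set with the highest mean log2 value stood for its gene. Ndn had 55.4 and 105 in the necdin null samples, against 253 and 255 in the wild type samples. Kit, the stem cell factor receptor of the LSK gate, had 6049 and 3744 in the necdin null samples, against 6617 and 3976 in the wild type samples; Ly6a, which encodes Sca-1, was not analysed here. On every array the Gapdh and actin signals were many times higher at the 3' end than at the 5' end. Necdin null replicate 2 had the highest Gapdh 3' to 5' ratio, at 15.8 against 9.96 to 11.7 on the other arrays. It also had the highest actin ratio, at 14.5 against 9.21 to 12.4 elsewhere. Of its total signal, 37.4% lay in the brightest 1% of probe sets, against 28.9% to 30.6% elsewhere. Of 13 neutrophil markers 12 were tested, all 12 with a positive log2 difference (median 0.43), and their signals summed to 102285 and 210899 in the necdin null samples, against 78497 and 146559 in the wild type samples. The genes Cd3d, Cd3e and Cd3g, which encode CD3 chains of the T cell receptor complex, were not among the genes tested. Of 12 T and NK lineage markers 4 were tested, all 4 with a positive log2 difference (median 0.11). Xist had 4841 and 76.8 in the necdin null samples, against 9930 and 7182 in the wild type samples. The Y-linked Eif2s3y had 2273 and 2987 in the necdin null samples, against 32.6 and 1974 in the wild type samples. Sex-linked signals thus differed within both groups and were also apart between them, Xist lower and Eif2s3y higher in necdin null cells. Necdin null replicate 1 and wild type replicate 2 each carried a strong Xist and a strong Y-linked signal, and the source of this was not tested. The part of the sex-linked signals in the results was not tested either. In a bulk sample, fewer cells of a type and less RNA per cell cannot be told apart.

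Within each family 1 paralogue gave the brightest probe set, and it was the same on all 4 arrays. Ccnd2 stood above Ccnd3 and Ccnd1, Cdk6 above Cdk4, Ccne2 above Ccne1, and Rbl1 above Rb1 and Rbl2. By the mean of all probe sets of a gene, dim ones included, Cdk6 lay below Cdk4 (log2 distance -2.22, against 0.56 by the brightest), Ccnd3 lay below Ccnd1 (-1.13, against 0.78), Rb1 lay below Rbl2 (-0.79, against 0.79), and Rbl1 lay only 0.18 above Rb1 (against 2.04). By the brightest probe sets the order of mean log2 values was Cdk6, Cdk4, Ccnd2, Rbl1, Ccnd3, Ccne2, Ccnd1, Rb1, Rbl2 and Ccne1. In that order the ranges over arrays overlapped for Ccne2 and Ccnd1, for Ccnd1 and Rb1, and for Rbl2 and Ccne1. Probe sets differ in how strongly they bind and are not scaled by transcript length, so this is an order of signals and not of transcript amounts. The position of each probe set along its transcript was not examined. Between necdin null and wild type cells 0 of the 10 genes passed in limma (adjusted p = 0.999 for each), and 0 had an unadjusted p under 0.05. Over all 12680 genes tested, 0 passed (0% called), and 3.02% had an unadjusted p under 0.05.

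**Figure D1:**
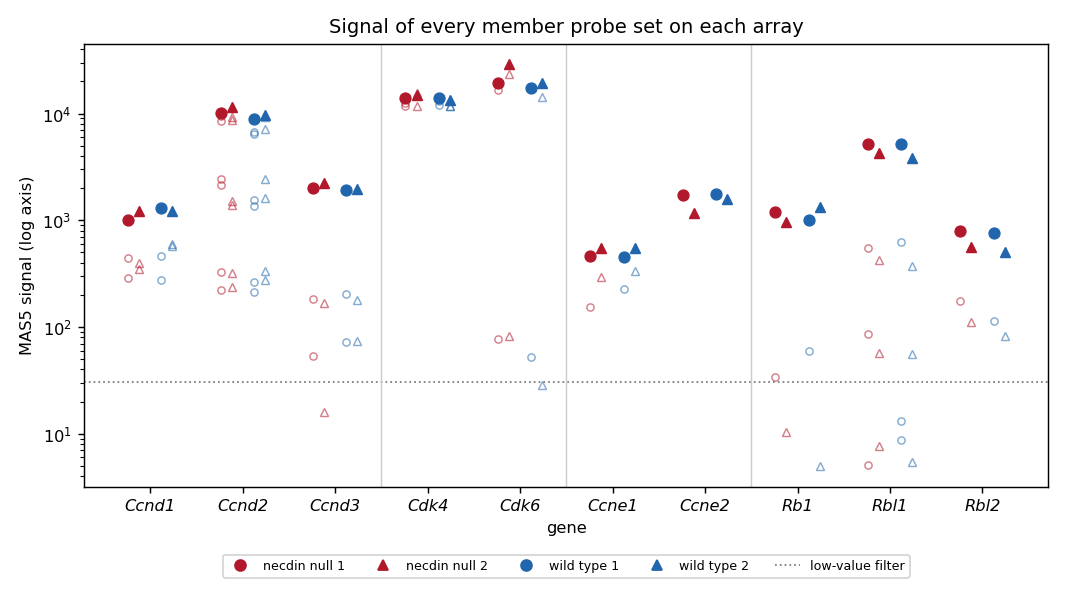
MAS5 signal (log axis) of each of the 30 probe sets on the necdin null (red) and wild type (blue) arrays, circles for replicate 1 and triangles for replicate 2, with filled symbols for the brightest probe set of each gene and the dotted line at the low-value filter of 30.3. Ccnd2, Cdk4 and Cdk6 reach at least 8897 on every array by their brightest probe sets, while further probe sets of Ccnd2 and Cdk6 lie far lower.

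Ccnd2, the D cyclin induced by cytokines in many blood cells, was represented by probe set 1434745_at with 10075 and 11478 in the necdin null samples, against 8897 and 9703 in the wild type samples. Both necdin null arrays were above both wild type arrays, and the gap between the groups was smaller than the distance between the 2 necdin null arrays. The log2 difference was 0.21 ± 0.20 (SE, 95% interval -0.23 to 0.65). Among all genes tested the groups were apart in 30.5%, with 12.8% higher and 17.7% lower in necdin null cells. Among the brightest 5% of genes, which include Ccnd2 and Cdk6, 19.7% were higher without overlap. A second Ccnd2 probe set, 1416122_at, had 9399 and 8652 in the necdin null samples, against 6722 and 7231 in the wild type samples. Its arrays did not overlap either, and its log2 difference of 0.37 ± 0.19 (SE) had the smallest unadjusted p of the 27 probe sets above the filter (0.086; limma adjusted p = 0.996). Of the 7 Ccnd2 probe sets, 6 had a positive difference, 2 with groups apart, where 31.4% of all probe sets tested had groups apart in either direction. Probe sets 1416123_at and 1416124_at lay between 213 and 336 on all arrays, below every value of the main Ccnd3 and Ccnd1 probe sets.

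Ccnd1, the D cyclin best known outside the blood system, had 1009 and 1210 by probe set 1448698_at in the necdin null samples, against 1297 and 1225 in the wild type samples. The necdin null arrays were both lower, with necdin null replicate 2 close to wild type replicate 2. The log2 difference was -0.19 ± 0.21 (SE, 95% interval -0.66 to 0.29). Probe set 1417419_at had 443 and 348 in the necdin null samples, against 460 and 576 in the wild type samples, again without overlap (log2 difference -0.39 ± 0.29 SE). For 1417420_at the groups overlapped, at 287 and 398 in the necdin null samples, against 274 and 599.5 in the wild type samples. All 3 Ccnd1 probe sets, which share the same RNA, thus had a negative difference, 2 with groups apart. Of all probe sets tested, 31.4% had groups apart in either direction.

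Ccnd3, the D cyclin prominent in lymphoid and erythroid cells, had 1993 and 2226 by probe set 1415907_at in the necdin null samples, against 1938 and 1952 in the wild type samples. The necdin null arrays were both higher, but necdin null replicate 1 exceeded wild type replicate 2 by only a small margin, and the log2 difference was 0.11 ± 0.19 (SE, 95% interval -0.31 to 0.54). The other probe sets did not share this direction. Probe set 1438805_at had 184 and 168 in the necdin null samples, against 202 and 178 in the wild type samples. The dim 1444323_at had 54.0 and 16.1 in the necdin null samples, against 72.9 and 73.3 in the wild type samples, with a log2 difference of -1.18 ± 0.71 (SE).

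The balance between paralogues was compared as a log2 difference between their brightest probe sets within each array, a quantity that does not move with the scaling of the array. Ccnd1 minus Ccnd2 was -3.31 and -3.24 on the necdin null arrays, against -2.77 and -2.98 on the wild type arrays. The groups did not overlap, and the shift of -0.40 was larger than the distance between the arrays of either group. An exact two-sided permutation test gave p = 0.333, the smallest that 2 against 2 arrays allow, and none of the 6 pairs could go lower. Taking each of the 3 Ccnd1 with each of the 7 Ccnd2 probe sets, which share the same RNA, the shift was negative in 21 of 21 combinations, from -0.76 to -0.17, with groups apart in 10. Every Ccnd1 probe set had a lower difference than every Ccnd2 probe set, so these signs were fixed and add no support. The share of other gene pairs with groups apart was not computed. With quantile normalization the shift between the brightest probe sets shrank to -0.24. The pooled SD within groups was then 0.20, against 0.11 without that normalization. Leaving out 1 array in turn gave -0.50 to -0.30. Ccnd3 minus Ccnd2 was -2.34 and -2.36 in the necdin null samples, against -2.20 and -2.31 in the wild type samples, a shift of -0.10 that became 0.03 with quantile normalization.

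**Figure D2:**
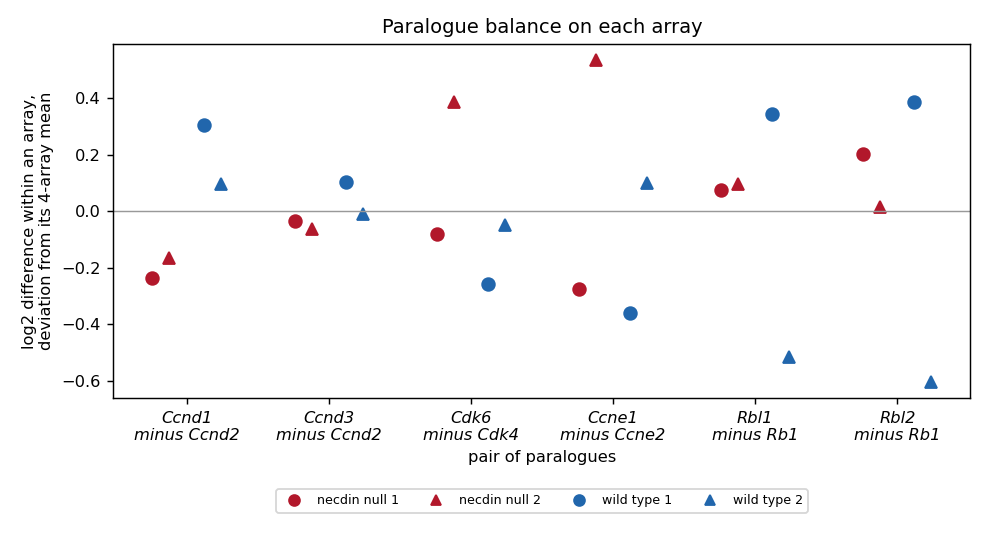
Log2 difference between 2 paralogues within an array, drawn as the deviation from its mean over the 4 arrays, for 6 pairs on the necdin null (red) and wild type (blue) arrays, circles for replicate 1 and triangles for replicate 2. The groups are apart for Ccnd1 minus Ccnd2 and, narrowly, for Ccnd3 minus Ccnd2, and they overlap for the other 4 pairs.

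Cdk6, a D cyclin kinase known to be limiting for the exit of blood stem cells from quiescence, had 19494 and 29037 by probe set 1435338_at in the necdin null samples, against 17430 and 19186 in the wild type samples. The arrays did not overlap, but necdin null replicate 1 was close to wild type replicate 2, and the high mean rested on necdin null replicate 2. The log2 difference was 0.38 ± 0.25 (SE, 95% interval -0.20 to 0.95). It was 0.09 without necdin null replicate 2 and 0.67 without necdin null replicate 1. Probe set 1455287_at had 16747 and 23544 in the necdin null samples, against 17018 and 14307 in the wild type samples, where the groups overlapped. The third, 1460291_at, was near the filter with 77.8 and 81.7 in the necdin null samples, against 52.8 and 28.4 in the wild type samples.

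Cdk4, the second D cyclin kinase, was bright by all 3 of its probe sets, between 11638 and 15589 over all arrays. By probe set 1422439_a_at it had 13961 and 15028 in the necdin null samples, against 14084 and 13410 in the wild type samples. The groups overlapped, and the log2 difference of 0.08 ± 0.20 (SE, 95% interval -0.38 to 0.53) turned to -0.037 with quantile normalization. Cdk6 minus Cdk4 within arrays was 0.48 and 0.95 in the necdin null samples, against 0.31 and 0.52 in the wild type samples. These groups overlapped, with necdin null replicate 2 far above the other 3 arrays (exact permutation p = 0.667). The shift of 0.30 was 0.069 without necdin null replicate 2 and 0.54 without necdin null replicate 1. Over the 9 combinations of probe sets, which share the same RNA and include the dim 1460291_at, it lay between 0.19 and 0.99, with groups apart in 6. Every Cdk6 probe set had a higher difference than every Cdk4 probe set, so the sign was fixed here too.

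Cdk6, Cdk4 and Ccnd2 ranked 143, 295 and 469 by mean log2 value among the 12680 genes, all within the brightest 5%. In that bright class of 634 genes the necdin null arrays had a median deviation of -0.10 and 0.25 from the 4-array mean, against -0.09 and -0.06 on the wild type arrays. The median log2 difference of the class was 0.15. In it 549 genes had a positive difference, and 19.7% were higher without overlap, against 12.8% of all genes tested. Cdk6 and Ccnd2 belong to this class, and like its median deviation their brightest probe sets were highest on necdin null replicate 2. On necdin null replicate 1 the class had its lowest deviation, while these probe sets were above both wild type arrays. The part of the class brightness in the Cdk6 and Ccnd2 values was not tested beyond quantile normalization. With quantile normalization, which gives all arrays the same distribution, the log2 differences were 0.19 for Cdk6 and 0.11 for Ccnd2.

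**Figure D3:**
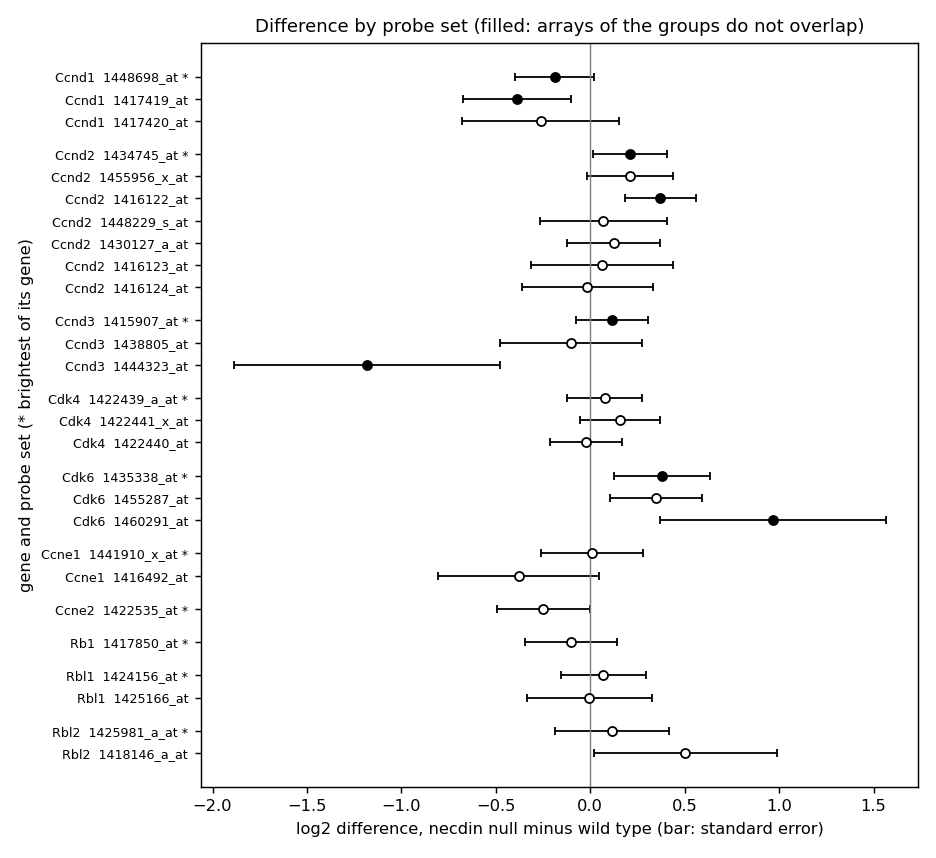
Log2 difference (necdin null minus wild type, limma fit over all probe sets) with its standard error as a bar, for the 27 probe sets above the low-value filter, an asterisk marking the brightest of each gene. Filled points have groups that do not overlap (8 of 27, against 31.4% of all probe sets tested): 5 lie above 0, for Ccnd2, Ccnd3 and Cdk6, and 3 below it, for Ccnd1 and Ccnd3.

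Ccne2, an activator of Cdk2 induced by E2F, had 1724 and 1157 by its only probe set, 1422535_at, in the necdin null samples, against 1774 and 1587 in the wild type samples. The groups overlapped, with necdin null replicate 2 the lowest array. The log2 difference was -0.25 ± 0.24 (SE, 95% interval -0.79 to 0.29), and 0.039 without necdin null replicate 2. Ccne1, the other E cyclin, had 462 and 545 by probe set 1441910_x_at in the necdin null samples, against 449 and 553 in the wild type samples. The log2 difference was 0.01 ± 0.27 (SE, 95% interval -0.61 to 0.63). The suffix of that probe set marks probes that may also bind other transcripts. The second Ccne1 probe set, 1416492_at, had 154 and 292 in the necdin null samples, against 228 and 337 in the wild type samples, with overlapping groups and a log2 difference of -0.38 ± 0.43 (SE).

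Rbl1, which encodes the RB relative p107, is known as an E2F target. Its start was therefore searched for the E2F words TTTCCCGC, TTTCGCGC, TTTGGCGC and TTTGCCGC on both strands, where words may overlap, in RefSeq windows of 250 bases before to 50 after a start (build GRCm38.p6). Of the 10 genes 6 had a window (Ccnd3, Ccne1, Cdk4, Cdk6, Rbl1 and Rbl2), and only that of Rbl1 held a word. Among all genes with a window 2.61% held a word, and among 25 E2F target genes of S phase 10 did. The stretches of Rbl1 and of the helicase genes Mcm5, Mcm6 and Mcm7, picked from those 10, are shown with the words in capitals. All 4 hold a word before the start, and the other target genes with a word are not shown. A match of letters is a description and not a measured site.
Rbl1, chr2:157204535-157204592, minus strand: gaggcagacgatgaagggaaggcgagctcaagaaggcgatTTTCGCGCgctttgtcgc
Mcm5, chr8:75109316-75109407, plus strand: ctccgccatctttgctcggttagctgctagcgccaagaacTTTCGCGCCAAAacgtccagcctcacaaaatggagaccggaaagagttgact
Mcm6, chr1:128359764-128359855, minus strand: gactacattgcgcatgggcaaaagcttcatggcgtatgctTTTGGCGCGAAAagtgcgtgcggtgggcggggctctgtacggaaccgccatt
Mcm7, chr5:138172001-138172088, minus strand: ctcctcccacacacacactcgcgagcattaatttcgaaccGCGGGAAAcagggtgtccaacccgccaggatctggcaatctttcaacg

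In Rbl1 and Mcm5 the word TTTCGCGC is read on the gene's own strand. It ends 10 bases before the Rbl1 start and lies within an overlapping pair of words in Mcm5. Further words, not shown, are TTTGGCGC ending 39 bases before the Mcm6 start and TTTCGCGC after the Mcm7 start, both on the gene's own strand. By probe set 1424156_at Rbl1 had 5224 and 4237 in the necdin null samples, against 5211 and 3855 in the wild type samples. The groups overlapped, and the log2 difference of 0.07 ± 0.22 (SE, 95% interval -0.42 to 0.56) was -0.011 with median centring. Probe set 1425166_at had 547 and 424 in the necdin null samples, against 629 and 372 in the wild type samples, and 2 further Rbl1 probe sets were below the filter. The log2 differences of the helicase genes were 0.06 for Mcm5, 0.28 for Mcm6 and 0.26 for Mcm7, with standard errors of 0.22 to 0.25. Over the 28 E2F target genes tested the median was -0.03, with 11 positive and 17 negative.

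Rb1, the retinoblastoma protein itself, had 1203 and 962 by probe set 1417850_at in the necdin null samples, against 996 and 1340.4 in the wild type samples. Ordered by signal, the arrays of the 2 groups alternated, and the log2 difference was -0.10 ± 0.24 (SE, 95% interval -0.64 to 0.44). A second Rb1 probe set was below the filter. Rbl2, which encodes p130, the RB relative prominent in quiescent cells, had 802 and 562 by probe set 1425981_a_at in the necdin null samples, against 755 and 509 in the wild type samples. The groups overlapped (log2 difference 0.11 ± 0.30 SE, 95% interval -0.56 to 0.79). Its second probe set, 1418146_a_at, had 175 and 110 in the necdin null samples, against 113 and 83.0 in the wild type samples, a log2 difference of 0.50 ± 0.49 (SE). Within arrays, Rbl1 minus Rb1 was 2.11 and 2.13 in the necdin null samples, against 2.38 and 1.52 in the wild type samples. Rbl2 minus Rb1 was -0.58 and -0.77 in the necdin null samples, against -0.40 and -1.39 in the wild type samples. For both pairs the necdin null arrays lay between the wild type arrays.

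For 4 of the 10 genes the arrays split by replicate number and not by genotype. Rbl1, Rbl2 and Ccne2 were higher on both replicate 1 arrays than on both replicate 2 arrays, and Ccne1 was lower on them. For Rbl1 the difference between genotypes, 0.07, was smaller than the log2 distance between the arrays of a group, 0.30 in necdin null and 0.43 in wild type cells. Both Rbl2 probe sets, both Ccne1 probe sets and the 2 Rbl1 probe sets above the filter split in this way. Over all genes tested 40.6% did, so the share among the members is near that of all genes. The summed neutrophil signal was higher on both replicate 2 arrays, as was that of 10 monocyte and macrophage markers, at 14980 and 27977 in the necdin null samples, against 11416.5 and 25888 in the wild type samples. Their part in the values of these 4 genes was not tested.

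**Figure D4:**
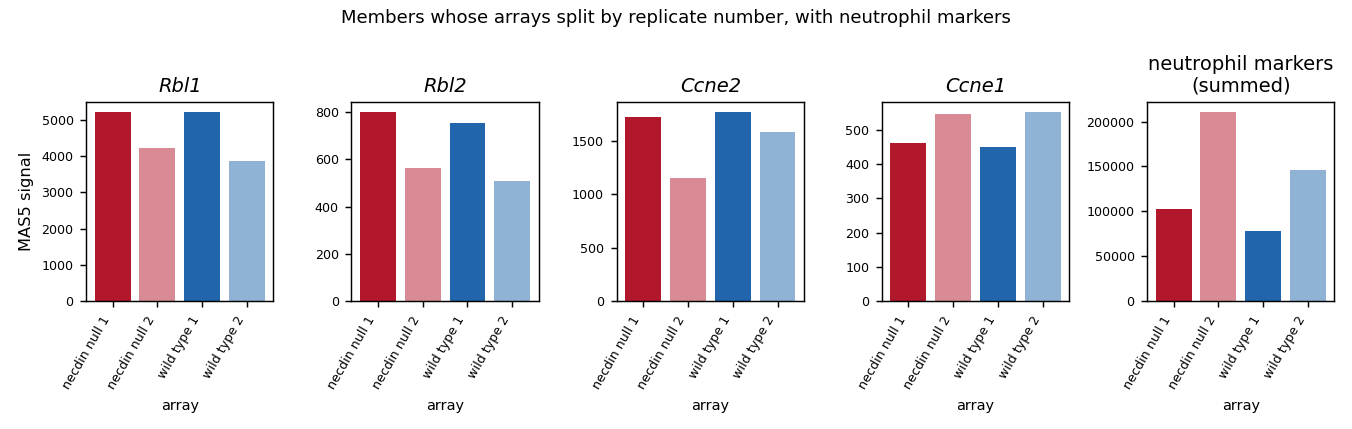
MAS5 signal of Rbl1, Rbl2, Ccne2 and Ccne1 (brightest probe set) and summed MAS5 signal of 12 neutrophil markers, as bars from 0, on the necdin null (red) and wild type (blue) arrays, with replicate 2 in the paler shade. Rbl1, Rbl2 and Ccne2 are lower, and Ccne1 and the neutrophil sum higher, on both replicate 2 arrays.

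Of the 10 main differences 7 were positive and 3 negative, with groups apart in 4 (3 higher, 1 lower), a share near the 30.5% of all genes. The median log2 difference of the members was 0.07, against -0.03 for all genes, and the median size without sign was 0.11, against 0.21 for all genes. The other genes of the G1 to S switch were taken from 8 lists, in which 0 genes passed in limma and 0 had an unadjusted p under 0.05. Among the cyclin and CDK partners 7 of 12 had a positive difference, with a median of 0.04. Cdk2, the kinase of cyclin E, had 965.5 and 757 in the necdin null samples, against 1393 and 1098 in the wild type samples, without overlap (log2 difference -0.53 ± 0.24 SE, unadjusted p = 0.052, limma adjusted p = 0.999). Cdc25b, a phosphatase that activates CDKs, had -0.46. Among the turnover genes of cyclins D and E 7 of 13 were positive (median 0.04). Cul3, a ubiquitin ligase scaffold, had 0.38 with groups apart, and Btrc, an F-box protein, had -1.22 with overlapping groups.

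The CDK inhibitors and the E2F factors act on either side of the members. Of 5 measured CDK inhibitors none had groups apart: the log2 differences were 0.33 for Cdkn1a, 0.18 for Cdkn1b, 0.29 for Cdkn1c, -0.41 for Cdkn2c and -0.36 for Cdkn2d, while Cdkn2a and Cdkn2b were below the filter. Among 10 E2F and DP factors the median was 0.01. E2f3, an activator of S phase genes, had 1904 and 1573 in the necdin null samples, against 2767 and 2046 in the wild type samples, and E2f2, a second activator, had 429 and 414 in the necdin null samples, against 594.5 and 519 in the wild type samples. Both were lower without overlap, with log2 differences of -0.46 ± 0.22 (SE) and -0.40 ± 0.26 (SE). Tfdp1, a dimer partner of E2F, was higher without overlap at 0.12, and E2f1, E2f4, E2f5, E2f6, E2f7, E2f8 and Tfdp2 lay between -0.03 and 0.08 with overlapping groups.

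Downstream of the members, 11 of 28 E2F target genes of S phase had a positive difference, with a median of -0.03. Groups were apart in 9 of the 28, 5 higher and 4 lower, a share near the 30.5% of all genes. Gins1, a subunit of the replicative helicase complex, had -0.35 ± 0.18 (SE), and Fen1, a nuclease of lagging strand synthesis, had 0.43 ± 0.25 (SE). Among 7 DREAM and MuvB subunits and their kinases, which regulate cell cycle genes with Rbl1 and Rbl2, the median was 0.08, with Lin37 at -0.53 and the kinase Dyrk1b at 0.44. Among 13 chromatin repressors that bind RB proteins 9 were negative (median -0.18). Without overlap 4 were lower and 1 was higher, where 17.7% of all genes were lower and 12.8% higher without overlap. The remodelling ATPase Smarca4 had -0.34 without overlap, and its relative Smarca2 had -0.52 with overlap. Of 19 genes of the signals upstream of D cyclins 11 were negative (median -0.10), with Foxo1, which restrains D cyclins, at -0.47 without overlap and Mycn at -0.47 with overlap. Among 11 proliferation markers 7 were negative (median -0.21), 6 without overlap, where 17.7% of all genes were lower without overlap. Of the 11, 3 had an unadjusted p under 0.05, and 0 passed after adjustment. Mki67 had 1050 and 1493 in the necdin null samples, against 2117 and 1846 in the wild type samples (log2 difference -0.66, unadjusted p = 0.019, limma adjusted p = 0.999). The other two, named after their values were seen, were Racgap1 at -0.52 and Aurkb at -0.51 (limma adjusted p = 0.999 for each). The topoisomerase Top2a had 6642 and 5549 in the necdin null samples, against 6055 and 6027 in the wild type samples.

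**Figure D5:**
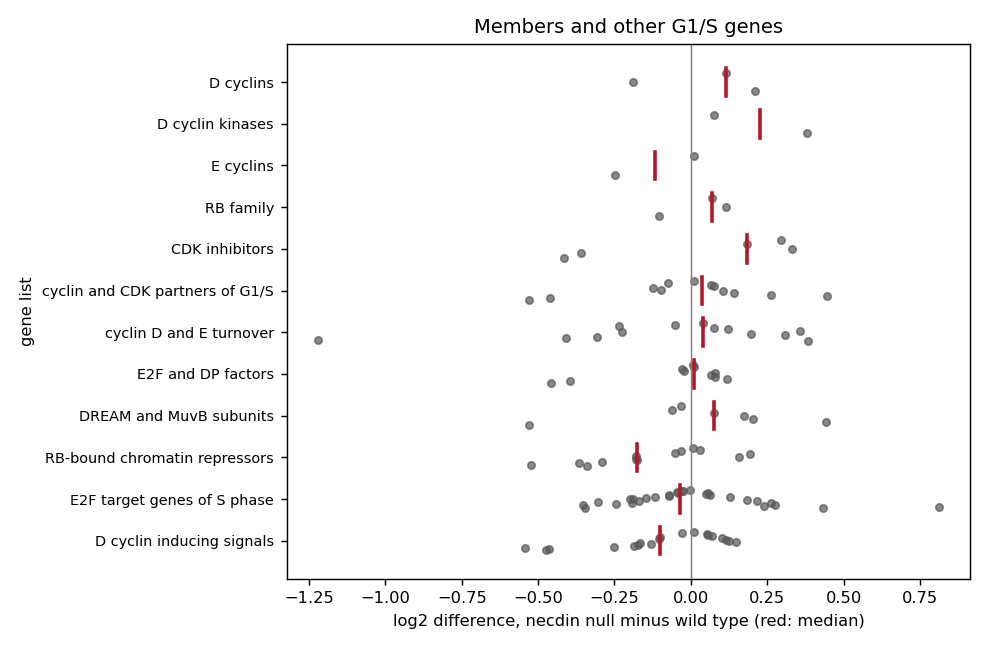
Log2 difference (necdin null minus wild type) of each gene tested, 1 point a gene, in the 4 member families and 8 lists of other G1 to S genes, with the median of each list as a red bar. Medians lie between -0.18, for the RB-bound chromatin repressors, and 0.23, for the D cyclin kinases.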

How the data were processed

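The deposited table holds intensity values, linear and 1 column per array, which were made with MAS5 per the submitters' processing notes (version, scanner settings and genome build not given in the sources used here). Each array has a trimmed mean of 500.004 (2% left out at each end). Names came from the platform annotation (34958 with 1 symbol, 932 with several and 9211 with none, the last 2 unnamed here). Values were analysed as log2(signal + 3.80), with the 10th percentile of all values as pseudocount, which understates the change of low genes. The filter was the 40th percentile of probe sets (log2 value 5.09, signal 30.3) and kept 12680 genes; 27 of the 30 member probe sets passed. The genotypes were compared in limma 3.58.1 under R 4.3.3 (necdin null minus wild type; lmFit, eBayes with intensity trend, two-sided, Benjamini-Hochberg over all genes, threshold 0.05); the code was tested on simulated data. Single probe sets come from the same fit over 27061 probe sets. Groups apart means that the arrays of the 2 groups do not overlap. Members and lists were chosen with earlier results of these data known. The genes named beside the members are, per list, the 2 of smallest unadjusted p, all CDK inhibitors and E2F and DP factors, Ndn, Kit, Mki67 and Top2a. Mcm5, Mcm6 and Mcm7 were picked among the E2F target genes with promoter words. Xist and Eif2s3y were named for their spread, and Racgap1 and Aurkb for their p. Likeness of pattern was not computed over 4 arrays. Alternatives changed the pseudocount, filter, normalization, variance model and probe sets, added a replicate block or left out each array.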

Additional observations from a re-analysis of the deposited data

How the results depend on the processing

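The count of members that passed was 0 under all 14 alternatives, with a lowest limma adjusted p of 0.17, for Cdk6 without necdin null replicate 1, where the lone array is assumed to vary like the others. Ccnd1, Ccnd2 and Cdk6 kept their direction under all 14; Rbl2 has no probe set for the setting with _at probe sets alone. Over all genes, 0 passed under each change of pseudocount, filter, normalization, variance or probe sets, 0 to 4 when leaving out 1 array, and 3 with the replicate block, none of them a member. With the replicate block the lowest adjusted p among the members was 0.95. Replicate numbers were not treated as pairing, since there are only 2 pairs, whose deviations from their group means had a correlation of 0.11 over genes. The replicate number still went with part of the spread. By it 40.6% of genes split, against 30.5% by genotype. In limma 675 genes had an unadjusted p under 0.05 with the block, against 383 without it. Signs turned for Cdk4 with quantile normalization (-0.037), median centring (-0.0050) and _at probe sets alone (-0.022), for Rbl1 with median centring (-0.011), and for Ccne1 with median centring (-0.070), the mean of all probe sets (-0.18) and _at probe sets alone (-0.38). With the mean of all probe sets Ccnd3 had -0.39. Leaving out 1 array gave -0.32 to -0.059 for Ccnd1, 0.12 to 0.30 for Ccnd2, 0.035 to 0.19 for Ccnd3, 0.023 to 0.13 for Cdk4, and 0.092 to 0.67 for Cdk6, with both ends from leaving out necdin null replicate 1 or 2; it gave -0.14 to 0.16 for Ccne1, -0.53 to 0.039 for Ccne2, -0.32 to 0.11 for Rb1, -0.15 to 0.29 for Rbl1 and -0.17 to 0.40 for Rbl2. The order of signals within a family depended on dim probe sets. With the mean of all probe sets the log2 distance was 2.94 for Ccnd2 minus Ccnd3 (2.30 by the brightest), -1.13 for Ccnd3 minus Ccnd1 (0.78), -2.22 for Cdk6 minus Cdk4 (0.56), 2.13 for Ccne2 minus Ccne1 (1.62), 0.18 for Rbl1 minus Rb1 (2.04) and -0.79 for Rb1 minus Rbl2 (0.79); with _at probe sets alone Ccne2 minus Ccne1 was 2.65.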
